A study of Mus musculus with 13 samples.

Results

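A set of 872 chromatin peaks of the mouse kidney, of 300755 peaks in all, was less open in the adult than on the day of birth in several cell types at once. The members were chosen by a rule on the measured levels. For each cell type and stage the open calls were summed and scaled to CPM (open calls per 1e6 open calls of the same sum), and a peak was kept if it had at least 10 CPM at P0 and at least 2 times the adult CPM in 3 or more of 5 cell types. An open call is a nucleus in which at least 1 fragment lay in the peak. The 5 cell types were the proximal convoluted tubule (PCT, the cluster named PT in the deposited annotation), the loop of Henle (LOH), the principal cells of the collecting duct (PC), the endothelium (Endo) and stroma 2. The members were 0.29% of all peaks and 4.92% of the 17725 peaks that met the level part of the rule at P0, which are called peaks open at P0 below. The mirror rule, with adult and P0 exchanged, gave 665 gained peaks as a second set for comparison.

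The peaks come from single-nucleus ATAC-seq of whole mouse kidneys, in which Tn5 transposase tags open chromatin in nuclei that are then captured in droplets. The P0 group held 2 samples, and the adult group held 3, namely 1 of P21 and 2 of P56. The labels give the stage of each sample and name no strain, sex, genotype or treatment, and nothing in them says how many animals a sample holds. A p-value here therefore measures the spread between samples, which may be technical. The samples held 3361 to 7129 nuclei, 16980853 to 43794155 open calls and a median of 3371 to 6737 open peaks per nucleus, lowest in P56 sample 1. In all, 477 barcodes occurred in more than 1 sample, in 959 nuclei, and whether these share a source was not tested. Of the 13 named cell types, most had their own marker genes highest at P0. The LOH markers summed to 181 CPM in LOH at P0 and 742 in the adult, PCT markers to 659 and 959 in PCT, endothelial markers to 1309 and 1983 in Endo and stromal markers to 496 and 510 in stroma 2. In 3 tubule types the order at P0 went against the name. PC markers were at 143 CPM in PC and 183 in the connecting tubule (CNT), CNT markers were highest in the distal convoluted tubule (DCT) at 341, and the markers of the proximal straight tubule (PST) were at 79.1 in PST and 96.5 in PCT.

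A peak of open chromatin marks DNA that is free of packed nucleosomes, as at promoters and enhancers in use. In the mouse, new nephrons still form from progenitor cells for a few days after birth, and tubules, vessels and stroma then mature and grow. Genes of fetal growth, such as the Igf2bp and Hmga families and imprinted loci, are active in many fetal tissues at once and are mostly silent in adult organs. The name "lost" describes a lower level and not closed chromatin. The median adult level of the members was 3.95 CPM in PCT, 4.33 in LOH, 4.96 in PC, 4.47 in Endo and 5.94 in stroma 2, against 0.269 to 0.713 for all peaks, and 95 (PCT) to 226 (stroma 2) members were still at 10 CPM or more in the adult.

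The sequences below are the middle of members on which the results turn, read from GRCm38 (mm10) on the plus strand, in windows that hold no annotated exon. They were chosen as the peak upstream of Igf2bp3 and the start of Igf2bp1 (fetal RNA-binding proteins), the Hmga2 intron (a fetal chromatin protein), Nespas (the imprinted Gnas locus), Sox11 (a transcription factor of embryonic cells), the Nkd1 intron (a Wnt antagonist), a peak near Ccnc that met the rule in all 5 cell types, and a distal peak that was higher at P0 in 6 further cell types. Capitals mark matches, on either strand, of a fixed list of 34 motifs, and a match is a description of letters, not a bound site.
Igf2bp3 upstream (chr6:49218008-49218167): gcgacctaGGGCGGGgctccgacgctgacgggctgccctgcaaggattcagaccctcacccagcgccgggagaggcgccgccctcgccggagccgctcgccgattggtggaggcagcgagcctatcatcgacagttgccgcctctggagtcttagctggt
Igf2bp1 start (chr11:96005299-96005458): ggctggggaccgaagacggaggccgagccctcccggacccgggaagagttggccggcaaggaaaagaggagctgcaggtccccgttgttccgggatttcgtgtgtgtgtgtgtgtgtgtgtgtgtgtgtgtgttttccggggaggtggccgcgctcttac
Hmga2 intron (chr10:120433326-120433485): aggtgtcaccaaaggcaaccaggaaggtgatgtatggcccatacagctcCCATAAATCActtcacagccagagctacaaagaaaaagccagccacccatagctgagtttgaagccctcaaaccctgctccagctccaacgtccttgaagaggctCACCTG
Nespas (chr2:174295626-174295785): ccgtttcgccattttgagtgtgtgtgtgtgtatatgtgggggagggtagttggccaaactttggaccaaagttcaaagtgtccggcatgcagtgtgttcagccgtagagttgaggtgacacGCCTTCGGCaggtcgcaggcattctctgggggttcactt
Sox11 start (chr12:27343060-27343219): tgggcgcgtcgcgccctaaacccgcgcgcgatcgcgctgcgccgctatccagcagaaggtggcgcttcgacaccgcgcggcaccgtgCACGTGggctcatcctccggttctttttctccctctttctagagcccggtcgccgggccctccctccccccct
Nkd1 intron (chr8:88570696-88570855): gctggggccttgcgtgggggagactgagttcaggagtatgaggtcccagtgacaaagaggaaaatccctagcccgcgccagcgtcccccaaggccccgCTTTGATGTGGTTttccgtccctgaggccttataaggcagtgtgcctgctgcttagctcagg
near Ccnc (chr4:21712423-21712582): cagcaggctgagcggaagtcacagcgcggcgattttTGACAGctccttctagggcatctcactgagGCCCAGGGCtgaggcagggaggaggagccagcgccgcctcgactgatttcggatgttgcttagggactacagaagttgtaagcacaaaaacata
distal, chromosome 6 (chr6:51178605-51178764): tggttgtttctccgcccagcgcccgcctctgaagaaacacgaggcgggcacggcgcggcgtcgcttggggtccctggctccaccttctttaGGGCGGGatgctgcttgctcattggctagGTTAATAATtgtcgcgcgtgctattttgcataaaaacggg

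The capitals are a GC box (GGGCGGG) upstream of Igf2bp3 and in the distal peak, a posterior HOX motif (TTTATNG) that overlaps a PBX and HOX motif (TGATTNAT) and an E-box (CAGGTG) in Hmga2, TFAP2 motifs (GCCNNNGGC) in Nespas and near Ccnc, an E-box (CACGTG) at Sox11, a TCF and LEF motif (CTTTGAT) that shares 1 base with a RUNX motif (TGTGGTT) in Nkd1, a MEIS motif (TGACAG) near Ccnc and an HNF1 motif (GTTAATNAT) in the distal peak. The Igf2bp1 window held no listed motif. Of all peaks, the central 300 bp held the GC box in 5.095%, the posterior HOX motif in 15.3%, the PBX and HOX motif in 5.555%, CAGGTG in 18.5%, TFAP2 in 8.98%, CACGTG in 4.62%, TCF and LEF in 5.19%, RUNX in 6.97%, MEIS in 22.55%, HNF1 in 1.485% and the D-box in 1.30%. For contrast, a gained peak at Nr1d1, a circadian repressor, is shown with its D-box (TTATGTAA, the site of PAR bZIP factors) and E-box in capitals, since no member held that D-box in its central 300 bp.
Nr1d1, gained (chr11:98774076-98774235): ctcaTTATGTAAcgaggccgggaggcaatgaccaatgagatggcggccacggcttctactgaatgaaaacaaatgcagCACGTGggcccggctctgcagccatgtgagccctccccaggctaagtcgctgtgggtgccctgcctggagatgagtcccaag

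The levels in the 5 cell types chose the members and are given without a test. LOH met the rule for 814 members and PC for 768, stroma 2 for 500, Endo for 489 and PCT for 333. Among all peaks at 10 CPM or more at P0, the share at 2 times the adult level was 22.6% in LOH, 17.6% in PC, 15.4% in Endo, 21.2% in stroma 2 and 10.5% in PCT. The rule was met in 3 cell types by 626 members, in 4 by 204 and in all 5 by 42. The most frequent combination was LOH with PC and stroma 2 (191 members), then LOH with PC and Endo (169) and PCT with LOH and PC (126). The median member was at 18.2 CPM at P0 and 4.33 in the adult in LOH, 16.8 and 4.96 in PC, 15.3 and 5.94 in stroma 2, 12.9 and 4.47 in Endo, and 10.3 and 3.95 in PCT.

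Summed over the 872 members, their share of all open calls separated the stages in each sample. In LOH it was 1.77% and 1.69% in the P0 samples against 0.522% (P21), 0.571% and 0.423% (P56) in the adult ones. In PCT, the type with the smallest gap of the 5, it was 0.998% and 0.970%, then 0.510%, 0.533% and 0.394%. The P0 samples lay above the adult samples in all 13 cell types, also in the 8 that the rule did not use. Nephron progenitors (NP) had the highest shares at P0, 1.94% and 1.92%, against 0.597%, 0.674% and 0.622% in the adult. Immune cells had the lowest at P0, 0.830% and 0.834%, against 0.604%, 0.599% and 0.529%.

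**Figure D1:**
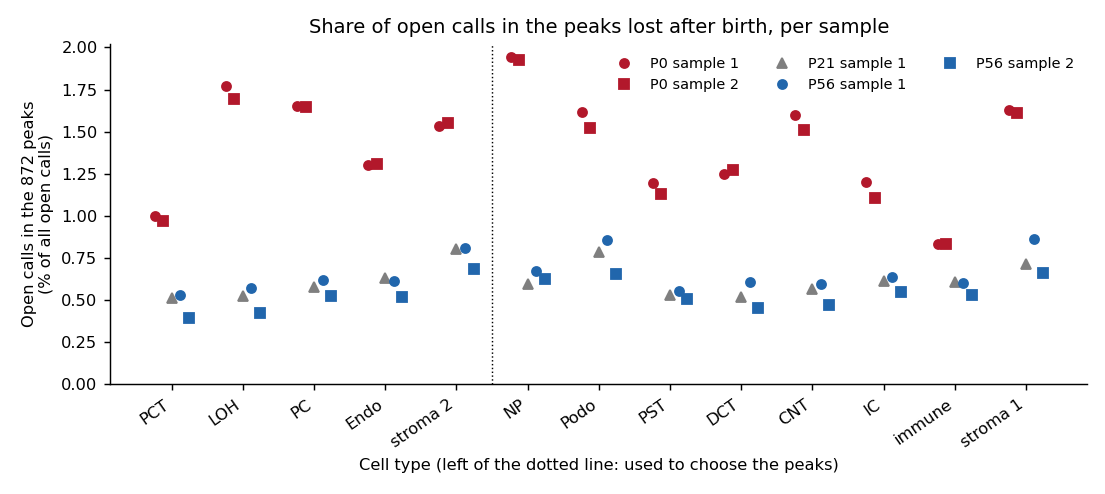
Share of open calls that lie in the 872 peaks (% of all open calls, vertical axis) in each of the 13 cell types (horizontal axis), with a point for each of the 5 samples; types left of the dotted line were used to choose the peaks. The P0 points lie above the adult points in every type, from 1.94% in NP to 0.830% in immune cells.

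Members were open in many cell types at P0. The median member reached 10 CPM in 10 of 13 types at P0 and in 2 in the adult, and 266 members (30.5%) reached it in no adult type. The 5 types of the rule are among the 13, so this drop is in part fixed by the choice of members. The median peak open at P0 reached it in 13 types at both stages. NP, which the rule did not use, was the type with the highest P0 level for 208 members (23.9%), against 3.56% of the peaks open at P0. Immune cells were highest for 7.68% of members and 30.0% of the peaks open at P0. Podocytes (Podo) were highest for 12.4% of members and 12.8% of the peaks open at P0, and stroma 1 for 10.4% and 4.18%.

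Progenitor markers also moved with stage inside some of the cell types. The marker list of NP, 6 genes with 49 peaks of which 1 is a member, summed to 192 and 173 CPM in LOH at P0 and to 67.2, 60.6 and 40.2 in the adult samples. In PC it was 124 and 131 against 77.3, 58.3 and 64.7, and in stroma 2 107 and 103 against 82.0, 55.9 and 61.5. In PCT the summed list overlapped, at 133 and 127 against 135, 116 and 131, but 1 gene, Crym, carried most of it (88.4 CPM at P0 and 109 in the adult), and the other 5 genes were each higher at P0, such as Eya1 at 15.3 against 5.97 and Uncx at 5.145 against 1.75. In Endo the sum was 154 and 162 at P0 and 162, 195 and 196 in the adult, most of it from Meox1 (107 and 160). Crym was also higher in the adult there (7.96 and 11.3). Six2 (14.9 against 5.52), Cited1 (12.2 against 4.47), Uncx (5.12 against 2.37) and Eya1 (9.67 against 6.31) were higher at P0. Of the defining markers, Six2 was at 75.8 CPM in NP and 21.6 in LOH at P0, and at 3.64 in adult LOH. The stromal list, which holds no member, was also higher at P0 than in the adult without overlap of samples in LOH (150 CPM against 51.9), PCT (86.8 against 41.5), PC (109.5 against 53.85) and Endo (97.1 against 47.1), and the endothelial list in PCT (106.5 against 55.1), LOH (197 against 122) and PC (237 against 168). The podocyte list, also without a member, was higher at P0 in the same way in PCT (215.5 against 137), LOH (163 against 78.8) and PC (211 against 106), while in Endo and stroma 2 it was higher in the adult samples. The CNT list, with 1 member, was higher at P0 without overlap in Endo (144.5 against 55.8) and stroma 2 (234 against 117). It was higher in the adult samples in PCT (64.0 and 80.75) and overlapped in LOH and PC. In Endo and stroma 2 most of it came from 1 gene, Slc8a1, which holds the member and 65 of the 78 peaks. Slc8a1 was at 139.6 and 51.3 in Endo and at 223.9 and 108.9 in stroma 2. Trpv5 was at 2.13 and 1.84 in Endo and at 3.625 and 4.75 in stroma 2. Calb1 was at 2.70 and 2.63 in Endo and at 6.87 and 3.57 in stroma 2. The markers of proliferating cells were at 110 and 106 in LOH and at 138 and 116 in Endo. The samples did not overlap in Endo, and they overlapped in LOH, PCT, PC and stroma 2. The part of such markers in the levels of the members was not tested.

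Among the 42 members that met the rule in all 5 cell types, the largest smallest ratios over these types (5.01 and 4.68) lay at Igf2bp3. Its protein binds and stabilises mRNAs in fetal tissue. Igf2bp3 was the gene with the most members, 4 of its 6 peaks open at P0, among 866 genes with at least 1 member in the gene or 5 kb upstream. At its start (chr6:49214812-49215940), LOH was at 12.0 and 21 CPM in the P0 samples and at 3.2 (P21), 1.06 and 1.37 (P56) in the adult samples. Endo was higher there, at 34.5 and 43.8 CPM at P0 against 7.93, 5.79 and 3.15. All P0 samples lay above all adult samples in the 5 types. In NP this peak was low at both stages, at 7.96 and 7.97 CPM at P0 and 13, 0 and 2.71 in the adult, and the groups overlapped. In PST, not used to choose the members, it was 27.9 and 38.2 CPM at P0 against 2.49, 1.31 and 1.9. The log2 fold change was 4.21 (SE 0.439) by edgeR. All adult samples were low there, so the peak entered the test through P0 and its p is not given. Here and below, a member with few open calls in the adult passed the filter on low values mainly through P0, where it is high. Where a p is printed for such a member, it describes the fit and is no independent support.

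The peak 2744 bp upstream of Igf2bp3 (chr6:49217701-49218474), whose middle is printed above, had the largest smallest ratio of those 42 members, 5.01, in Endo. Endo was at 49.2 and 51.4 CPM at P0 and at 14.3, 12.6 and 3.93 in the adult. LOH was at 27.8 and 31.8 CPM at P0 and at 6.4, 1.06 and 2.05 in the adult. The P21 sample was the highest adult sample in both. The peak was higher at P0 in PST (log2 fold change 2.8, SE 0.429, adjusted p = 0.00168), CNT (2.36, SE 0.577, adjusted p = 0.00426) and stroma 1 (2.1, SE 0.503, adjusted p = 0.000326) by edgeR. In immune cells it stood at 65.5 and 68.3 CPM at P0 and 61.4, 25.1 and 6.85 in the adult, which did not pass (adjusted p = 0.154). The other members at Igf2bp3 lay in introns, at chr6:49164789-49165733 and chr6:49210332-49211040, and both were called higher at P0 in both further types in which they could be tested.

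Members also lay at Igf2bp1, its paralog, and at Hmga2, a chromatin protein of embryonic growth, whose 2 members named here met the rule in 3 and 4 cell types. The peak at the start of Igf2bp1 (chr11:96004629-96006222, which also covers the start of Gm29202) was at 12.6 and 14.8 CPM in stroma 2 at P0 and at 2.28, 1.06 and 1.38 in the adult. It was testable in 1 further type, CNT, where it was higher at P0 (log2 fold change 3.03, SE 0.629). The adult level was low beside P0 there, so its p is not given. The Hmga2 intron member (chr10:120432866-120433946), 42346 bp from the start, was at 15.1 and 16.5 CPM in LOH at P0 and at 1.28, 1.76 and 1.37 in the adult. It was near 0 in PCT at both stages, 0.135 and 0.296 CPM. The strongest level was in NP, 39.5 and 34.9 CPM at P0 against 0, 3.05 and 2.71. These adult NP values rest on 0, 1 and 1 open calls, so the peak entered the test in NP through P0 alone and its p is not given. A count of 0 in NP allows up to 13 CPM in the P21 sample. The Hmga2 start (chr10:120475081-120477868) was higher at both stages, at 45.5 and 46.2 CPM in LOH at P0 and 20.5, 24.7 and 11.4 in the adult, and passed the test in NP (log2 fold change 1.81, adjusted p = 3.93e-09), PST (1.76, adjusted p = 0.0187) and CNT (0.993, adjusted p = 0.0202) by edgeR, without passing in IC (0.805, adjusted p = 0.509) and stroma 1 (0.57, adjusted p = 0.244).

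The list of fetal RNA-binding and chromatin genes, the 18 genes of the Lin28 axis, held 9 members among its 34 peaks open at P0 (26.5%), at Igf2bp1, Igf2bp3, Hmga2 and Elavl2, a neuronal RNA-binding protein. Over all peaks open at P0 in genes the share was 4.52%. The median ratio of P0 to adult over the peaks of the list was 1.51, and 0.960 over all such peaks. Lists were chosen with earlier results of these data known, and these shares carry no test.

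Imprinted genes held the member with the largest median ratio among the named members, 15.1. It lies at the start of Nespas, the antisense transcript of the Gnas locus (chr2:174295279-174296133). LOH was at 21.9 and 18.5 CPM at P0 and at 1.92, 0.704 and 0 in the adult, and Endo at 12.9 and 18.4 against 0, 1.05 and 0.787. A count of 0 allows up to 0.685 CPM in LOH of P56 sample 2 and up to 4.76 in Endo of the P21 sample. Adult DCT, CNT, IC and Podo had no open call of this peak in any of the 3 samples. In PST, the further type in which it could be tested, it was 14.5 and 15.1 CPM at P0 against 1.24, 0.262 and 0.737. The log2 fold change was 4.44 (SE 0.575) by edgeR. The peak entered that test through P0, where it is high, so its p is not given. Other imprinted members were a peak 1651 bp from Ndn (median ratio 4.93) and the start of Zim1 (2.38). The list had 3 members of 28 peaks open at P0 (10.7%), its median ratio was 1.03, and the remaining peaks of these genes did not meet the rule.

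Genes of nephron progenitors gave 4 members of 12 peaks open at P0 (33.3%), all over start sites. Wt1 encodes a transcription factor of progenitors and podocytes. The member over its start (chr2:105126283-105127641, shared with the antisense gene Wt1os) was at 57.1 and 52.0 CPM in NP at P0 and at 0, 0 and 5.43 in the adult, which is 0, 0 and 2 open calls, so no p is given for NP. In podocytes it was 65.9 and 81.8 CPM at P0 and 88.2, 63.2 and 70.1 in the adult, and the groups overlapped (log2 fold change 0.104, SE 0.184, adjusted p = 0.844). In LOH, where it met the rule, it was 20.8 and 20.4 against 4.48, 2.11 and 2.51.

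Robo2, a Slit receptor that limits ureteric budding, showed a like pattern at its start (chr16:74411305-74413500). It was at 52.0 and 49.3 CPM in NP at P0 and at 13, 6.09 and 2.71 in the adult, on 3, 2 and 1 open calls, but at 69.0 and 64.3 against 46.7, 77.9 and 61.9 in podocytes (-0.00888, SE 0.198, adjusted p = 0.989). In stroma 2 all adult samples were above the P0 samples, at 55.8, 61.7 and 43.5 against 38.7 and 35.5 CPM. Meox2, a homeobox factor, was at 42.9 and 35 CPM in NP at P0 against 0, 0 and 5.43, likewise 0, 0 and 2 open calls. Cited1, a progenitor coregulator, was at 22.2 and 16.7 CPM in LOH at P0 against 7.68, 10.2 and 4.11, and its only further test, in PST, did not pass (0.303, SE 0.455, adjusted p = 0.716).

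Sox genes, whose factors keep many embryonic cells from differentiating or set their lineage, had 3 members of 13 peaks open at P0 (23.1%), at Sox8, Sox9 and Sox11. The Sox11 start (chr12:27342283-27343996) was at 39.4 and 37.5 CPM in LOH at P0 and at 10.2, 11.6 and 8.21 in the adult. It was tested in 5 further types and was higher at P0 in all of them by edgeR. The log2 fold change ran from 2.03 in Podo (SE 0.475, adjusted p = 0.00302) to 3.6 in stroma 1 (SE 0.457). In stroma 1 the adult level was low beside P0, so no p is given there. The Sox9 start, which also covers the start of BC006965, was at 23.8 and 24.8 CPM in LOH at P0 against 7.04, 5.99 and 7.76. It was tested in 2 further types and was higher at P0 in 1 of them. In DCT, the other, it was at 34.2 and 14.7 against 59.3, 25.3 and 30.1, with overlapping groups (log2 fold change -0.211, SE 0.424, adjusted p = 0.893 by edgeR).

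Genes of neuronal and cytoskeletal function in growing cells gave 7 members of 29 peaks (24.1%), 6 of them over starts, at Tubb2b (a tubulin), Marcks, Dpysl3, Nav2 and Nav3 (cytoskeletal regulators) and the glypicans Gpc3 and Gpc6. The Gpc3 start (chrX:52613577-52614658) was at 25.5 and 27.4 CPM in LOH at P0 and at 9.6, 12.7 and 8.67 in the adult, and it was higher at P0 in all 5 further types tested, with adjusted p from 3.04e-06 in stroma 1 to 0.032 in Podo. Of the other members of this list over starts, Dpysl3 was higher in 3 of 3 further types tested, Gpc6 in 4 of 6, Tubb2b in 1 of 6, Nav2 in 0 of 2 and Nav3 in 0 of 2. Tenm3, a teneurin of cell adhesion, held 3 members, its only peaks open at P0. Nkd1, a Wnt target that inhibits Dishevelled, likewise held 3 of 3. Its intron member (chr8:88570347-88571205) was at 16.3 and 13.5 CPM in LOH at P0 and at 1.92, 0 and 0.228 in the adult. This intron member was higher at P0 in PST (log2 fold change 3.82, SE 0.616) by edgeR. The adult level was low beside P0 in PST, so no p is given. In CNT it was at 19.4 and 12.6 CPM at P0 against 0, 1.01 and 0, with 1 open call in the adult, so it entered the test through P0 alone. The transcription unit Gm20388 also held 3 members, among 98 peaks open at P0 along its length.

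The Tead and Yap list, growth effectors of the Hippo pathway, gave 3 members of 32 peaks (9.38%), at Tead2, Tead4 and Vgll3. The Tead2 start (chr7:45215768-45217242) was at 23.4 and 23.4 CPM in LOH at P0 against 4.48, 7.4 and 2.28, and passed in NP, PST, CNT and stroma 1, all 4 further types tested, while Vgll3 passed in 1 of 4 and Tead4 in 1 of 2. Igf and Fgf signal genes gave 4 of 58 (6.90%), at the starts of Igfbp2 and Igfbp4 and at peaks assigned to Fgfr1 and Fgfr2, the latter over the start of Tacc2. Cell cycle genes gave 1 of 40 (2.50%, 253 bp from the Ccnd2 start), DNA methylation and Polycomb genes 1 of 28 (3.57%, at the Dnmt3a start) and Hox genes with cofactors 1 of 46 (2.17%, in Hoxb3). No member lay at the immediate-early AP-1 genes, of 20 peaks, or at circadian and glucocorticoid response genes, of 35. At the 4.52% over all peaks open at P0 in genes, lists of this size hold few members, so these counts of 0 are no result about the lists. The median ratio of P0 to adult was 0.737 over the first of these lists and 0.559 over the second. The second held 26 of the 531 gained peaks in genes. How many of its peaks were open in the adult was not counted. Over all peaks open in the adult, 4.13% were gained.

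The remaining members that met the rule in all 5 types with the largest smallest ratio were at the starts of Gm15138 (3.02), Zdhhc15, a palmitoyltransferase (2.95), Tmem121b (2.79), Tmeff1 (2.61) and Rab39, a small GTPase (2.52), 61 bp from Golga7b (3.88) and 14948 bp from Ccnc (2.52). Gm15138 (chrX:151168577-151170193) was at 29.7 and 28.4 CPM in LOH at P0 and at 4.48, 1.76 and 5.25 in the adult. It was higher at P0 in all 5 further types tested by edgeR. The log2 fold change ran from 1.59 in Podo (SE 0.512, adjusted p = 0.0371) to 4.21 in CNT (SE 0.563). In CNT the adult level was low beside P0, so no p is given there. Rab39 (chr9:53705777-53706876) was highest in immune cells, at 83.9 and 91.0 CPM at P0 against 61.4, 55.1 and 48.0, where the samples did not overlap but the test did not pass (log2 fold change 0.753, SE 0.273, adjusted p = 0.342).

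**Figure D2:**
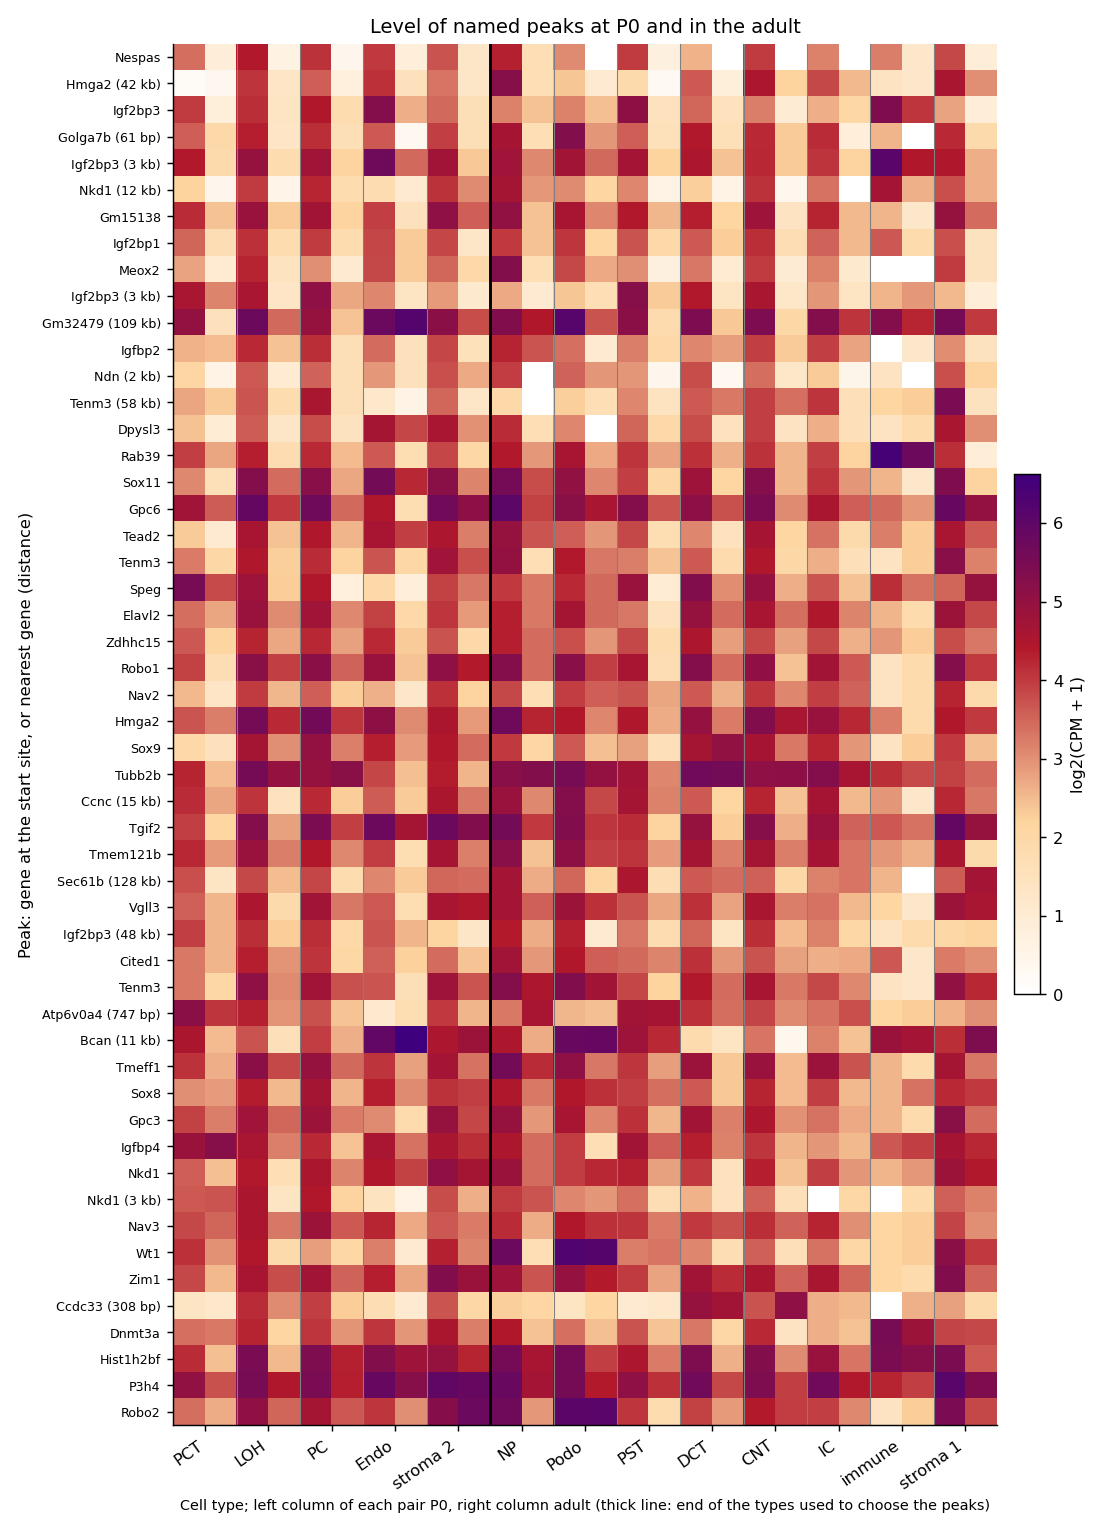
Level of named members, as log2(CPM + 1), at P0 (left of each pair of columns) and in the adult (right) in 13 cell types, ordered by median ratio; white is 0 and the thick line ends the types used to choose the peaks. Dark left and pale right columns run across most types, with exceptions such as Wt1 and Robo2 in Podo and the peaks near Bcan and Gm32479 in Endo.

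In the 8 cell types that the rule did not use, P0 was compared with the adult by edgeR over all peaks (quasi-likelihood test, Benjamini-Hochberg adjusted p under 0.05). These nuclei did not choose the members, but they come from the same samples. A peak entered a test only if its sums passed the filter on low values. A member passing mainly through P0, where it is high, had to differ, so the counts below describe the members that were tested and are not counts over all 872. In CNT, 589 members were tested and 478 were higher at P0, where 12.2% of all peaks tested were. In NP 196 of 211 were higher, against 20.4% of all peaks, and in stroma 1 264 of 345, against 20.8%. In the nuclei labelled NP the marker list of that type was at 349 CPM at P0 and 89.4 in the adult. Six2 was at 75.8 and 1.08 CPM there and Meox1 at 47.9 and 4.31, while adult NP still had 25.9 CPM of Uncx, the most of any adult type, and 21.55 of Eya1, so in NP the stage and the kind of nucleus cannot be told apart. In stroma 1 the stromal list was at 468 CPM at P0 and 229.5 in the adult, the proximal tubule list at 68.3 and 287, the LOH list at 71.0 and 133 and the endothelial list at 245 and 358. In CNT the DCT list was at 125 CPM at P0 and 556 in the adult, the LOH list at 89.1 and 163, the podocyte list at 167.5 and 61.3, the NP list at 120 and 55.7, the endothelial list at 182 and 90.5 and the stromal list at 114 and 60.35, beside CNT markers at 238 and 768. In DCT the podocyte list was at 146 and 62.1, the NP list at 117 and 57.4 and the stromal list at 96.6 and 54.9. In PST the stromal list was at 119 and 65.6 and the podocyte list at 195 and 119. In Podo the NP list was at 172 and 94.5, the CNT list at 180 and 72.5 and the proximal tubule list at 81.3 and 202. Slc8a1 made up most of the CNT list there (162 and 68.1). The part of such markers in the calls of these types was not tested. PST gave 304 of 650 against 6.99%, Podo 88 of 231 against 3.52%, and DCT 32 of 72 against 1.13%.

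The intercalated cells (IC) and immune cells gave no call. In IC 113 members were tested by edgeR and 0 passed, with 59 higher at an unadjusted p under 0.05 and 0 by DESeq2, and 0% of all peaks were called higher. In immune cells 26 were tested and 0 passed, with 8 at an unadjusted p under 0.05 and 0 by DESeq2, and 0.0497% of all peaks were called. The P0 sums held 40 and 56 nuclei of IC and 99 and 57 of immune cells. Without P56 sample 1, 33 members passed in IC and 5 in immune cells. For P0 against P56 with the sample number as a block, 13 passed in IC and 0 in immune cells, against 0 in both without it. The shares over all peaks in IC and in immune cells in these fits are not given. Over the 8 types the fit without P56 sample 1 called 41258 of all 236134 pairs higher at P0. The fit with the block called 31325 of 279575, and the main fit 12200 of 143261. Calls thus rose over all peaks too, and these counts are no result about the members alone.

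Over the 8 types, 2237 of 6976 pairs of a member and a cell type were tested and 1362 were higher at P0, 60.9%, against 8.52% of all pairs tested and 6.94% of those of the peaks open at P0. There were 5 pairs lower at P0, against 8.75% of all pairs. With no filter, 6925 pairs were tested and 2337 were higher (33.7%), against 4.78% of all pairs and 16.1% of those of the peaks open at P0, so the gap to the open peaks was smaller than with the filter. In that fit the median log2 fold change of all peaks moved from its main values to 2.11 in NP, 1.21 in stroma 1, 1.05 in Podo, 0.52 in CNT, -0.29 in immune cells, -0.32 in DCT, -0.49 in IC and -0.58 in PST, so its calls are relative to a shifted centre. The count moved with the samples used, and so did the number of pairs tested, since the filter is set by the sums in each fit. Leaving out either P0 sample, which leaves 1 P0 sample in the fit, lowered the number of pairs called, among members and over all pairs alike. In PST the calls of members were lost in both cases. They also fell in CNT, Podo, DCT and stroma 1 and stayed nearly the same in NP. In NP 211 members were tested in the main fit. Without the P21 sample, P56 sample 1 or P56 sample 2 the count in NP was 656, 677 and 631 of 862 to 864 members tested. In the same order it was 85, 46 and 21 in DCT and 372, 426 and 273 in stroma 1, and DESeq2 gave 20 in Podo and 13 in DCT. Without the P21 sample the count was 2007 of 4076 tested (49.2%), where 39748 of all 279575 pairs were called, and without P56 sample 1 it was 2110 of 3483 (60.6%), where 41258 of all 236134 were.

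**Figure D3:**
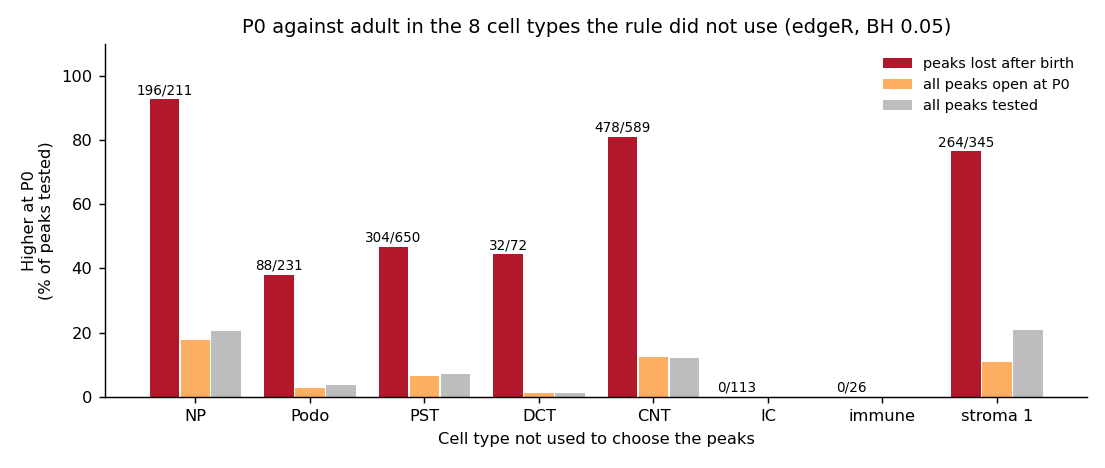
Share of tested peaks that were higher at P0 (% of peaks tested, edgeR, adjusted p under 0.05) in the 8 cell types not used to choose the members (horizontal axis), for members (red, with the number called over the number tested), peaks open at P0 (orange) and all peaks (grey). Members reach 196 of 211 in NP and 0 of 113 in IC, and members that failed the filter are not counted.

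By member, 67 were tested in none of the 8 types and 670 were higher at P0 in at least 1. The same count was not made for all peaks or for peaks open at P0. Members often entered a test through P0, so these counts describe the tested members only. The number of types in which a member was higher was 1 for 280 members, 2 for 204, 3 for 108, 4 for 47, 5 for 24 and 6 for 7. Those in 6 types included the shared start of P3h4 and Fkbp10, which modify collagen in the endoplasmic reticulum, the histone genes Hist1h2bf and Hist1h2ad, the start of Robo1, the start of Tgif2, a repressor of TGF-beta signals, and a distal peak on chromosome 6.

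The P3h4 and Fkbp10 peak (chr11:100414296-100416026) was at 39.9 and 41.6 CPM in CNT at P0 and at 10.9, 18.1 and 12.7 in the adult (log2 fold change 1.78, SE 0.307, adjusted p = 0.000253). In stroma 2 it was 61.0 and 61.8 against 55.8, 59.1 and 50.4, a ratio of 1.11, so it stayed high there. The histone peak (chr13:23574114-23574705) was at 44.8 and 36.8 CPM in DCT at P0 and at 8.09, 3.3 and 5.34 in the adult (log2 fold change 3.21, SE 0.498). It entered the test in DCT through P0, so no p is given. Immune cells held 47.2 and 36.4 against 53.7, 50.1 and 25.1 (0.237, SE 0.452, adjusted p = 0.929 by edgeR). Histone genes are near-identical copies, and reads may be shared among them. Robo1 (chr16:72662942-72664105) was at 19.4 and 27.2 CPM in PST at P0 against 3.11, 4.71 and 1.05 (log2 fold change 3.18, SE 0.571). Tgif2 (chr2:156839508-156841762, shared with Gm14230) was at 26.3 and 31.9 in DCT against 2.7, 4.41 and 3.82 (3.13, SE 0.553). Both entered these tests through P0, where they are high, so no p is given.

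The distal peak (chr6:51178299-51179070), printed above, lay 108785 bp from the nearest annotated start, of Gm32479. In Podo it was at 60.5 and 75.8 CPM at P0 and at 15.6, 12.6 and 8.25 in the adult (log2 fold change 2.52, SE 0.316). In CNT it was at 35.3 and 49.1 against 8.16, 5.03 and 0.605 (3.98, SE 0.497). The peak entered both tests through P0, where it is high, so no p is given. In Endo all adult samples were above the P0 samples, at 76.2, 64.7 and 82.6 against 53.2 and 56.1 CPM. The P21 sample was well above the P56 samples in LOH, at 39.0 against 5.64 and 2.51, and in NP, at 51.9 against 12.2 and 8.14.

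There were 5 members lower at P0 in a further cell type by edgeR. The Speg start, a muscle kinase gene, was at 11.2 and 9.32 CPM in stroma 1 at P0 and at 40.8, 37.0 and 18.6 in the adult (log2 fold change -1.37, SE 0.373, adjusted p = 0.0016). In PST it was at 30.3 and 27.2 against 0.622, 1.31 and 0.843 (4.91, SE 0.478). It entered the test in PST through P0, so no p is given there. A peak 10658 bp from Bcan (chr3:87982134-87983797) was at 17.8 and 15.8 against 23.8, 57.1 and 41.0 in stroma 1 (-1.15, SE 0.287, adjusted p = 0.000607). In Endo it was open at 59.3 and 61.8 CPM against 121, 84.2 and 105, so in both types the adult samples were higher.

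A peak 128432 bp from Sec61b (chr4:47603380-47604646) was also lower at P0 in stroma 1, at 12.0 and 10.3 CPM against 23.8, 33.6 and 20.5 (log2 fold change -1.02, SE 0.383, adjusted p = 0.0259). This peak was higher at P0 in PST (3.32, SE 0.459). The adult level was low beside P0 in PST, so no p is given there. A peak of Atp6v0a4, a proton pump subunit of intercalated and proximal tubule cells, was at 6.87 and 10.2 CPM in NP at P0 and at 34.6, 30.5 and 10.9 in the adult (-1.1, SE 0.395, adjusted p = 0.0155). An intron peak of Ccdc33 was at 12.5 and 11.3 CPM in CNT at P0 and at 27.2, 24.1 and 39.3 in the adult (-1.12, SE 0.36, adjusted p = 0.0255). The adult NP sums held 52 to 90 nuclei, in which the proximal tubule and LOH markers summed to 192 and 207 CPM, against 124 and 77.9 at P0, and the part of other cells in these sums was not tested.

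Between P21 and P56, in a fit with 3 groups in which the single P21 sample was assumed to vary like the others, edgeR called 0 of 3091 tested pairs higher at P21 and 0 lower. At an unadjusted p under 0.05, 63 pairs were higher and 64 lower, and DESeq2 called 0 in both directions. Of all pairs tested, 0.00794% were called higher at P21. With either P56 sample left out, the comparison rests on 1 sample a stage. The range given below for samples left out includes these fits. Calls over all pairs rose in them too, so that range is no result about the members.

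The members' positions did not enter the rule. A start site lay in 489 members (56.1%), fewer than in peaks open at P0 (67.6%) and more than in gained peaks (14.9%) or all peaks (7.04%). By element, with exons counted first and untranslated exons included, 67.4% of members were exonic, 13.65% intronic, 3.10% promoter and 15.8% distal. The distal and intronic share was 29.5% of members, 22.6% of peaks open at P0 and 65.0% of gained peaks. Members away from starts lay a median of 10.5 kb from the nearest start, against 7.81 kb for peaks open at P0. Of all members 6.31% lay beyond 50 kb of a start, and of all peaks open at P0 2.65%. The median width of all members was 1122 bp, near the 1037 bp of peaks open at P0.

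CpG content set members apart from gained peaks more than from open peaks. CpG-rich peaks (observed over expected CpG of at least 0.6 and GC content of at least 55%) were 42.8% of members, 48.9% of peaks open at P0, 2.71% of gained peaks and 3.78% of all peaks. Read the other way, members were 3.87% of CpG-rich start peaks open at P0, 4.52% of CpG-poor start peaks, 10.25% of CpG-rich peaks away from starts (61 members) and 6.26% of CpG-poor ones. Of the members, 43 lay within 10 kb of another and 156 within 100 kb, a count not made for the other sets. Chromosome 11 held 4.59% of members and 8.265% of peaks open at P0, and chromosome 6 held 6.995% and 5.08%. Start members met the rule in Endo more often (60.7%) than members away from starts (50.1%), and in PCT less often (34.8% against 42.6%), as a description without a test.

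**Figure D4:**
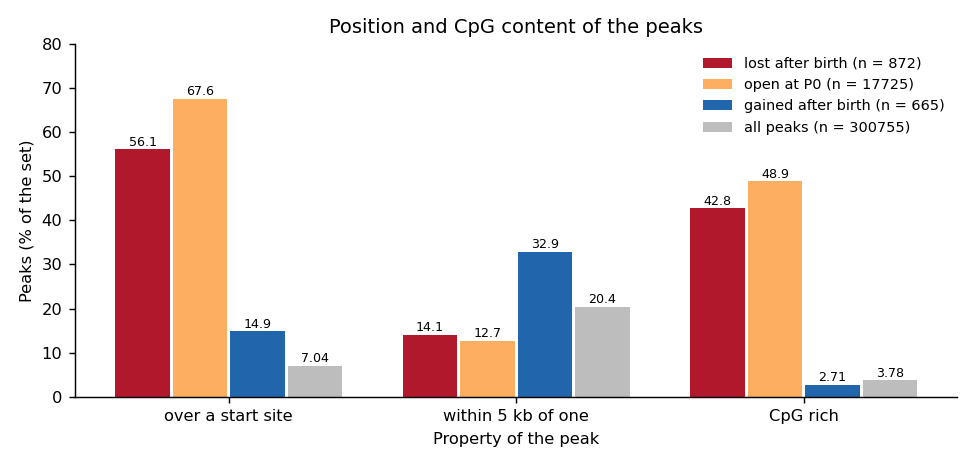
Share of peaks (% of the set, vertical axis from 0) that lie over a start site, within 5 kb of a start, or are CpG rich, for the 872 lost peaks (red), the 17725 peaks open at P0 (orange), the 665 gained peaks (blue) and all 300755 peaks (grey). The lost peaks are close to the open peaks, at 56.1% and 67.6% over starts, and far from the gained peaks at 14.9%.

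Motifs were searched in the central 300 bp on both strands. Beside the D-box, the lowest share relative to peaks open at P0 was that of the ETS motif of housekeeping promoters (CCGGAAGT), found in 3 members (0.344%), against 4.305% of peaks open at P0, 0.301% of gained peaks and 0.602% of all peaks. The lower share was also seen within CpG-rich start peaks, 0.962% of 312 members against 6.33%, and within CpG-poor start peaks, 0 of 177 against 4.98%. YY1 (AAGATGGCG, 0.344% against 2.00%), NRF1 (GCGCATGCG, 0.688% against 1.69%) and CRE (TGACGTCA, 0.688% against 1.77%) also had lower shares in members, and were in 0.233%, 0.174% and 0.379% of all peaks. The D-box (TTATGTAA) was in 0 of 872 members, against 0.491% of peaks open at P0 and 4.81% of gained peaks. Over the whole peak it was in 6 members (0.688%), against 2.285% of peaks open at P0 and 8.42% of gained peaks.

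Among motifs with a larger share in members than in peaks open at P0, TCF and LEF, the effectors of Wnt signals (CTTTGAT), had a match in 3.78% of members and 2.38% of peaks open at P0, with the gap among CpG-poor peaks away from starts (7.45% against 3.98%). An E-box of bHLH factors (CATCTG) was in 15.9% against 12.1%, and among CpG-rich start peaks in 13.5% against 7.10%. It was in 22.8% of all peaks. AP-1 (TGANTCA) was in 4.36% of members, 5.55% of peaks open at P0 and 12.5% of gained peaks, and the NFI motif (CTTGGCA) in 3.78%, 4.88% and 15.2%, while all peaks held them in 10.5% and 7.28%. The motif of Six2 and related progenitor factors (GGTATCA) was in 1.15% (10 members) against 0.863%, and in 1.70% of all peaks. These shares are descriptions, and the whole-peak search brought TCF and LEF to 11.35% against 9.93%.

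**Figure D5:**
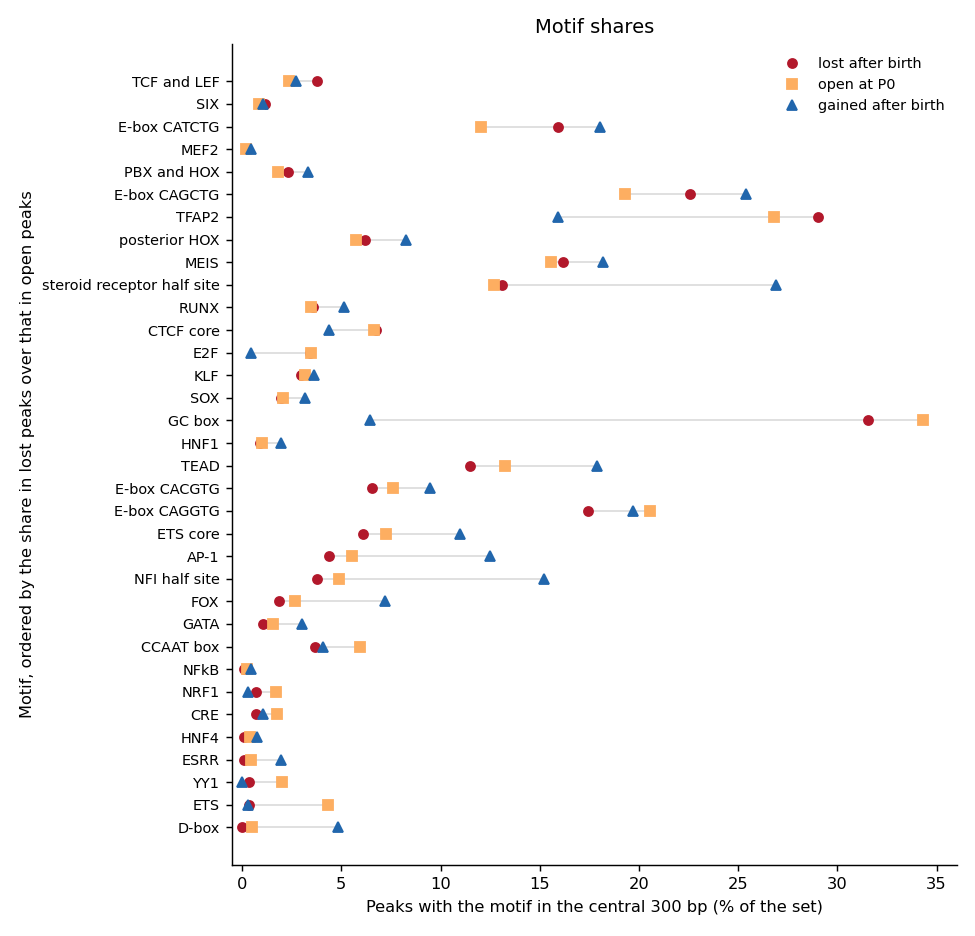
Share of peaks with a match of each of 34 motifs in the central 300 bp (% of the set, horizontal axis) for lost peaks (red circles), peaks open at P0 (orange squares) and gained peaks (blue triangles), ordered by the share in lost over that in open peaks. TCF and LEF stand at the top (3.78% against 2.38%), and ETS (0.344% against 4.305%) and the D-box (0 against 0.491%) at the bottom.

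Members lay close to both thresholds of the rule. Just inside the ratio threshold stood Spag4 (2.00037), Ptger1 (2.00041) and Dlg4 (2.00113), and outside it stood Zfp647 (1.99855) and Prr7 (1.99669), by the ratio in the third highest cell type. At the level threshold, peaks at 5930403N24Rik, Amph and 4930478M13Rik were inside at 10.0186 CPM, and those at Snap91 and Sema5b (9.95461) and P4ha3 (9.9545) outside.

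On the Y chromosome 4 members, at Uba1y, Eif2s3y, Uty and Ddx3y, followed the samples and not the stage. They had 472 to 736 open calls in each P0 sample and 175 to 419 in P56 sample 1, but 0 or 1 in the P21 sample and P56 sample 2. The labels do not give the animals' sex. Without chromosome Y there were 868 members.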

How the data were processed

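Whole mouse kidneys were profiled by single-nucleus ATAC-seq in 5 samples, and per the labels and methods the authors aligned reads to mm10 with Cell Ranger ATAC 1.1.0, clustered nuclei, called peaks per cell type with MACS2 and merged them. The authors deposited a binary matrix whose counts are 1 where a nucleus has a fragment in a peak, with peak positions and a cluster for each nucleus. It held 28316 nuclei and 300755 peaks, with 664 nuclei outside the 13 named types. A call is at most 1 per nucleus and peak, so levels saturate in deep nuclei. Doublet treatment is not given in the sources used here, and no doublet caller was run.

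Open calls were summed per cell type and sample. P0 was compared with the adult by edgeR 4.0.16 (TMM, quasi-likelihood test; R 4.3.3, limma 3.58.1) over all peaks passing filterByExpr (minimum count 10, total 15) in sums of at least 20 nuclei, and tested on simulated data. DESeq2 1.42.0 and the other settings were alternatives. Summaries used Python 3.11.15, numpy 2.4.6, pandas 2.3.3, scipy 1.17.1 and matplotlib 3.10.9. Ratios take the adult level as at least 3 open calls, and floors cover counting error only. Genes are GENCODE M21, sequence is GRCm38.

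The members, lists and markers were chosen with earlier results of these data known. Named are the 10 members with the largest smallest ratio among those meeting the rule in all 5 types, the genes with the most members, members over starts of listed genes and the 2 per list with the largest median ratio, the members called in most further cell types in each direction, peaks beside each threshold, and marker genes. Single-cell RNA and bulk data of the series were not analysed here. An item beside a threshold is not reported here.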

Additional observations from a re-analysis of the deposited data

Results flagged for a closer look

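In 11 pairs of a named member and a cell type at 10 CPM or more in the adult, all P0 samples lay below all adult samples. In 5 to 10 other cell types all P0 samples of the same member lay above all adult samples. Speg, Bcan and Sec61b in stroma 1, Atp6v0a4 in NP and Ccdc33 in CNT were named because they were called lower there. Their direction in those types therefore follows from that choice. The difference between cell types was not tested. The adult level was 27.4 CPM for the Hoxb3 intron in DCT (16.5 at P0), 54.2 for the Robo2 start in stroma 2 (37.2) and 29.2 for the Speg start in stroma 1 (10.4). The peak near Bcan was at 97.3 in adult Endo (60.3 at P0) and at 40.8 in adult stroma 1 (16.9). It was 24.8 for the peak near Sec61b in stroma 1 (11.2), 28.7 for the Ccnd2 intron in immune cells (15) and 23.7 for Atp6v0a4 in NP (8.68). The distal peak near Gm32479 was at 72.6 in adult Endo (54.3), an intron peak of Gse1 at 15.2 in adult PC (10.1) and the Ccdc33 intron at 32.8 in adult CNT (12).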

How the results depend on the processing

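The number of members was 3348 at a minimum of 5 CPM, 126 at 20 CPM, 290 at 3 times adult, 3213 with 2 or more cell types, 246 with 4 or more, and 42 with all 5. By the share of nuclei in place of CPM it was 4802. Leaving out 1 sample gave 754 to 1130. With P21 alone as adult there were 983 members, of which 616 were shared, and with nuclei thinned to 1000 open peaks 996, of which 539 were shared. In settings chosen after seeing the data there were 868 without the Y chromosome, 723 with P56 sample 1 alone as adult (587 shared) and 852 when each P0 sample also had to exceed each adult sample in 3 types.

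Pairs higher at P0 numbered 2337 with no filter and 4 of 27 tested with thinned nuclei, and 509 to 2110 with 1 sample left out, where a lone sample of a stage is assumed to vary like the rest. DESeq2 gave 1092. Pairs lower at P0 numbered 14 with no filter, 12 with P56 alone as adult, 0 with thinned nuclei and 2 to 12 with 1 sample left out. Pairs higher at P21 than at P56 numbered 1 with no filter and 0 to 21 with 1 sample left out. Counting promoters before other elements made 26.49% of members distal or intronic. The cause of these moves was not tested. For P21 against P56, calls over all pairs also rose when either P56 sample was left out. The counts of members in those fits are therefore no result about the members.

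With the replicate block, P0 against P56 gave 2060 pairs higher and 10 lower, against 2007 and 12 in the same samples without it. Of all 279575 pairs, 31325 were higher with the block and 39748 without it. The deposited names number the samples within each stage as batches, and the paper's methods number them across stages. Whether equal numbers share a batch is not stated. There are also only 2 pairs, so the numbers are not taken to pair the samples. The difference of sample 1 and sample 2 correlated between P0 and P56 at 0.365 over 17725 peaks, which are not independent.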
